A study of Mus musculus with 6 samples.

Results

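Foxf2, the lysyl oxidases and a group of collagen-modifying enzymes were measured in mouse 393P lung cancer cells with and without added Zeb1. The 10 genes are Foxf2, Lox, Loxl1, Loxl2, Loxl3, Loxl4, Plod1, Plod2, P4ha2 and Bmp1, and every probe set whose platform annotation names one of them alone was taken. This gave 18 of the 34945 probe sets with 1 symbol, in a table of 45101, and they read 9 of the 10 genes, among 18193 genes with such a probe set. Loxl2 has no value here, because its 2 probe sets also carry a second symbol. The choice of probe sets follows from the gene names alone, but the genes were proposed with earlier results of these data known.

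The 393P line, background knowledge holds, was grown from a mouse lung adenocarcinoma and has an epithelial form in culture. Both groups were made by stable transfection of that line: 3 cultures had received empty pcDNA (control vector), and 3 a construct that expresses Zeb1 constitutively (Zeb1 vector). One Affymetrix expression array was run per culture, and per the labels all cultures grew in serum-supplemented medium. The sources used here do not say how many separate transfections or clones each group stands for, so the p-values measure the spread between cultures.

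Fibrillar collagen becomes a stiff matrix through a chain of enzymes. In the endoplasmic reticulum prolyl 4-hydroxylases, whose catalytic subunits are encoded by genes such as P4ha2, stabilise the triple helix, and lysyl hydroxylases (Plod genes) modify lysines that later form crosslinks. Outside the cell Bmp1, the procollagen C-proteinase, trims the collagen precursor and also cuts the Lox precursor, and the copper-dependent lysyl oxidases (Lox and Loxl1 to Loxl4) oxidise lysines so that collagen and elastin crosslink. Foxf2 is a forkhead transcription factor of mesenchymal tissue that is known as a target of the miR-200 microRNAs, and Zeb1 and miR-200 repress each other. The question here is how these genes differ once Zeb1 is expressed.

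The mature miR-200 family, shown because its link to Foxf2 is the reason Foxf2 stands beside the crosslinking enzymes, falls into 2 seed groups. Capitals mark the seed, bases 2 to 8, and the sequences are from RefSeq (GRCm38.p6). None of these RNAs was measured on the arrays.
mmu-miR-200b-3p: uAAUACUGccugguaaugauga
mmu-miR-200c-3p: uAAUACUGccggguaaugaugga
mmu-miR-429-3p: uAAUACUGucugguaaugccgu
mmu-miR-141-3p: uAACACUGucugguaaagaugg
mmu-miR-200a-3p: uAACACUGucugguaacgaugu
The first 3 share the seed AAUACUG and the last 2 the seed AACACUG.

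Values are log2 MAS5 signals, and each array had been scaled to a common trimmed mean, so a signal is comparable between arrays for 1 probe set but not between probe sets. Signals under the 25th percentile of the whole table were raised to it (the floor, log2 4.45). Only probe sets at or above the array median on 3 or more of the 6 arrays were tested, and one is said to rise or fall only where limma's moderated test, adjusted over all 20594 tested probe sets, gave an adjusted p below 0.05. Over the tested probe sets, which are not independent replicates, Pearson's r was 0.979 to 0.984 for pairs of arrays within a group and 0.867 to 0.873 between groups. Zeb1 itself, on its brightest probe set, read 4.45, 4.45 and 4.50 in control replicates 1 to 3 and 9.71, 9.59 and 9.78 in Zeb1 replicates 1 to 3 (adjusted p = 2.3e-08). A second tested Zeb1 probe set rose by 1.17 (adjusted p = 0.00895), and the other 2 were not tested, with differences of 0.35 and 0. All 6 epithelial markers were read. Their summed linear signal was 109700 to 116400 in control and 57570 to 61810 in Zeb1 arrays. By the brightest probe set Cdh1, Epcam and Krt7 were called lower, with log2 changes of -4.01, -7.05 and -8.31. A second Epcam probe set was called lower too, with a smaller log2 change of -3.33. Krt8 was called lower by a small change of -0.16, and Krt18 and Krt19 were not called. Of 7 fibroblast markers 0 were tested, 5 (Lum, Fap, Dcn, Postn and Pdgfrb) lay below the array median on every array, and Pdgfrb was at the floor on all 6. Their summed linear signal was 262.3 to 414.4 in control and 239.1 to 292.8 in Zeb1 arrays. The 5 leukocyte markers read summed to 479.5 to 560 and 401.6 to 529.3, and the 5 endothelial markers to 326 to 461 and 321.6 to 465.5, with Pecam1 at the floor on all 6 arrays. Of the 2 tested leukocyte markers and the 1 tested endothelial marker 0 were called.

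Foxf2 rose steeply, Bmp1 and Loxl1 fell, P4ha2 fell slightly, and Loxl3, Loxl4, Plod1 and Plod2 were not called. Lox lay at or near the floor in both groups. Of the 18 probe sets 11 passed the filter, from 8 genes, and 5 of these were called, 1 higher and 4 lower. Over all tested probe sets 46.1% were called, 24.5% higher and 21.6% lower, so the share of members called is close to the background. The groups of arrays did not overlap for 7 of the 11, against 55.4% of all tested probe sets. The median log2 change of the 11 was -0.09, beside 0.02 for all tested probe sets. The 3 probe sets of Foxf2, Loxl1 and Bmp1 that reached the array median on exactly 3 arrays passed the filter through the group in which they were high, so these counts and this median are a description only.

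**Figure D1:**
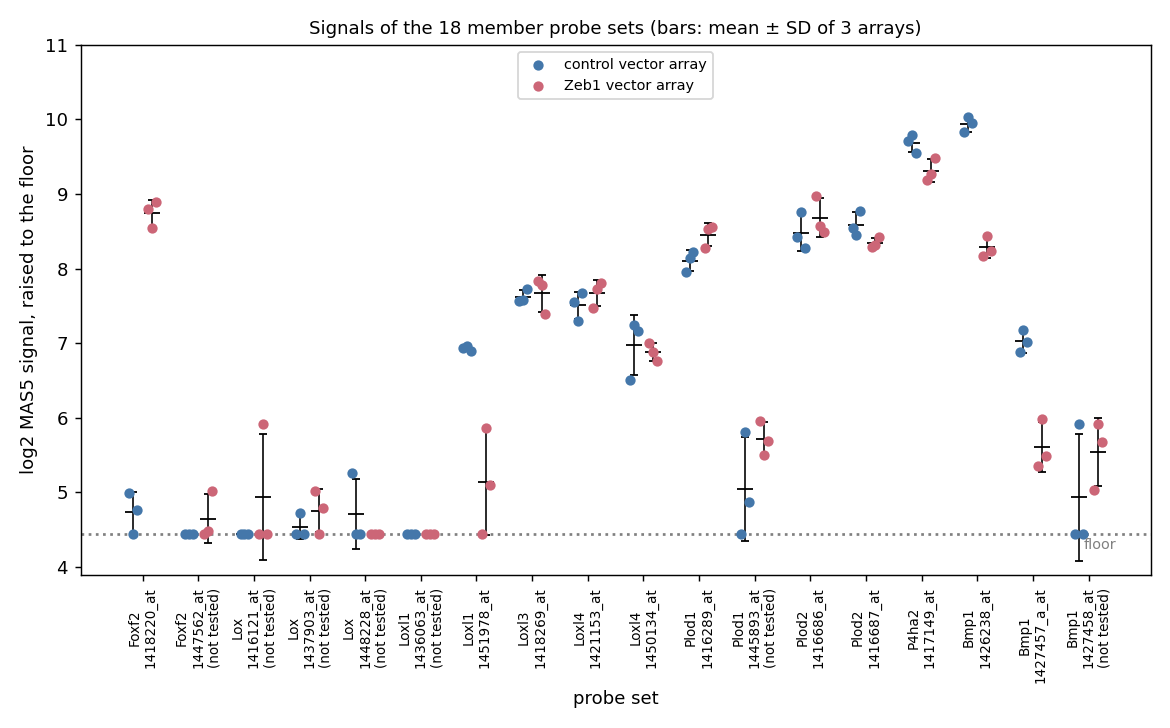
Log2 MAS5 signals (vertical axis) of the 18 member probe sets (horizontal axis) on the 3 control vector and 3 Zeb1 vector arrays, with the mean ± SD of each group as bars and the floor of 4.45 as a dotted line. Foxf2 1418220_at is near the floor in control arrays and at 8.54 to 8.89 in Zeb1 arrays, the 3 Lox probe sets lie at or near the floor in both groups, and the brightest Bmp1 probe set is lower on all 3 Zeb1 arrays.

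Foxf2, the transcription factor of the group, was at or near the floor in control cells and well above it in Zeb1 cells. On probe set 1418220_at the log2 signal was 4.995, 4.45 and 4.77 in control replicates 1 to 3, with replicate 2 at the floor, and 8.80, 8.54 and 8.89 in Zeb1 replicates 1 to 3. The lowest Zeb1 array thus lay far above the highest control array. The mean went from 4.74 ± 0.276 to 8.74 ± 0.181 (SD, n = 3 each), a rise of 4.01 (SE 0.233, 95% interval 3.48 to 4.53, limma adjusted p = 7.74e-07), or at least 16.1-fold. This probe set passed the filter through the Zeb1 arrays alone, and with no filter limma gave an adjusted p of 4e-04. In RNA from whole cultures, more cells that express a gene and more RNA per cell cannot be told apart. The fold is a lower bound because control signals are at or near the floor: the log2 change was 2.42 when the floor was set at the 50th percentile (6.32) and 4.36 when no floor was used. Among the 20594 tested probe sets 102, itself included, had a rise at least as large. The other Foxf2 probe set, 1447562_at, was not tested: all 3 control arrays and Zeb1 replicate 1 lay at the floor, and it read 4.48 and 5.02 on Zeb1 replicates 2 and 3.

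The stretch of 250 bases before the RefSeq start of Foxf2 is shown because Foxf2 had the largest rise among the members, and that of P4ha2 for a member that fell. The table used held no entry for Loxl1, Loxl3, Plod2 or Bmp1. Both were searched on both strands for CAGGTG, an E-box that Zeb1 is known to bind (its reverse complement is CACCTG), and for the forkhead core GTAAACA, whose reverse complement is TGTTTAC. An E-box match would be in capitals.
Foxf2, GRCm38.p6, chr13:31625566-31625815, plus strand: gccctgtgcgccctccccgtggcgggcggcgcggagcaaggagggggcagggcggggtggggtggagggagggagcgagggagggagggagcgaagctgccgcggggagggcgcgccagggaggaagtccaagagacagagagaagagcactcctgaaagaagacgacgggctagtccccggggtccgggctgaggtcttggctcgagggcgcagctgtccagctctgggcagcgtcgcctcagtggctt
P4ha2, GRCm38.p6, chr11:54100674-54100923, plus strand: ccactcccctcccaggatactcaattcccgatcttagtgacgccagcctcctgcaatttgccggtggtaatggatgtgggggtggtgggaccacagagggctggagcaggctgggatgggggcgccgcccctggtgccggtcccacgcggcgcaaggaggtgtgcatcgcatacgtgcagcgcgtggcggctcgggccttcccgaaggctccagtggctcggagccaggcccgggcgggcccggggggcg
Neither window holds either motif, and their GC content is 71.6% and 70%. Of the 32851 windows of this length given for all genes, 17.2% hold the E-box and 3.17% the forkhead core, so most windows hold neither. These are matches of letters in these windows alone.

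Foxf2 sits between Foxq1 and Foxc1 in the order of protein-coding genes on chromosome 13 of the RefSeq table, and both neighbours are forkhead genes too. They are named here for that position, after their values were seen. Foxc1 read 4.98, 5.95 and 6.29 in control replicates 1 to 3 and 6.55, 6.79 and 6.69 in Zeb1 replicates 1 to 3, a difference of 0.94 (SE 0.355, adjusted p = 0.0558), with groups that did not overlap but no call. Its other probe set was not tested (difference 0.82). For Foxq1 the brightest probe set had a difference of 0.37 (SE 0.176, adjusted p = 0.114), while its second probe set rose by 1.22 (adjusted p = 0.00101), from 6.30 ± 0.180 to 7.52 ± 0.201 (SD, n = 3 each). Gmds, which follows Foxc1 and is no forkhead gene, fell by 1.20 (SE 0.12, adjusted p = 3.1e-05), and its second probe set had a difference of -0.72 (adjusted p = 0.0988). The 95% intervals were 0.14 to 1.73 for Foxc1 and 0.75 to 1.69 for the second Foxq1 probe set, and whether they differ from the change of Foxf2 was not tested.

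Other forkhead genes went both ways. Of 30 listed, 21 were tested, and by the brightest tested probe set 5 rose, 6 fell and 10 were not called, with a median of -0.03. Over all 11893 tested genes 49.3% were called, 25.8% higher and 23.5% lower. The largest rises after Foxf2 were those of Foxp1 (1.48, SE 0.085, adjusted p = 7.34e-07), a transcription factor of lung and lymphoid development, the endoderm factor Foxa2 (1.35, SE 0.095) and Foxn2 (0.45, SE 0.098). Of the 5 other tested Foxp1 probe sets all were called higher, by 1.02 to 1.33. The largest falls were those of the 3 FoxO factors that act downstream of insulin signalling, Foxo4 (-1.43, adjusted p = 0.042), Foxo3 (-1.32, adjusted p = 8.24e-06) and Foxo1 (-1.04, adjusted p = 3.79e-05). The Foxo4 call was lost when control replicate 1, 2 or 3 or Zeb1 replicate 2 or 3 was left out (adjusted p = 0.0562, 0.0923, 0.132, 0.124 and 0.134), and under the floor of 6.32 its change was -0.39, which was not called either (adjusted p = 0.168). It was also not called with no filter (adjusted p = 0.201) or with no intensity trend (0.0772), and without Zeb1 replicate 1 its change was -2.04. Foxf1, the paralogue of Foxf2, was not called: its mean was 6.59 in control and 6.38 in Zeb1 cells, a difference of -0.21 (SE 0.283, adjusted p = 0.597). It too is named after its value was seen.

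**Figure D2:**
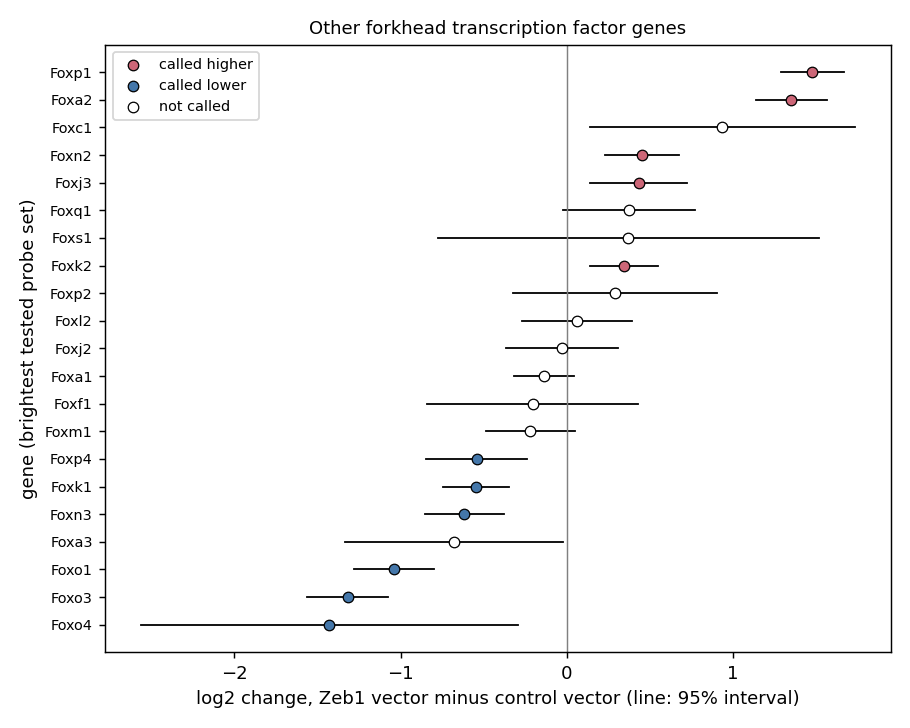
Log2 change (horizontal axis, Zeb1 vector minus control vector, with 95% intervals) of the 21 tested forkhead genes other than Foxf2 (vertical axis), each by its brightest tested probe set. Filled points were called and open points were not; the largest rise is 1.48 for Foxp1, below the 4.01 of Foxf2.

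The 5 genes most like Foxf2 over the 6 arrays were Niban1, Zfp503, Plcl2, Car5b and Gamt. Likeness was the root-mean-square difference in log2 signal after each gene was centred on its control mean, among 11892 other genes. It was 0.11 for Niban1, 0.18 for Zfp503, 0.20 for Plcl2 and 0.21 for both Car5b and Gamt. Their log2 changes ran from 3.97 for Niban1 to 4.18 for Car5b, and Zfp503 was at the floor on all 3 control arrays. Foxf2 and these genes, apart from Niban1 (control mean 6.40), had control means under 6.32, so their changes, and with them this ranking, depend on the floor used.

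Among the 3 lysyl oxidases tested, Loxl1, Loxl3 and Loxl4, the single gene called was Loxl1, and it fell. Loxl1, an oxidase known for elastic fibre upkeep, read 6.93, 6.96 and 6.89 in control replicates 1 to 3 on probe set 1451978_at. Zeb1 replicates 1 to 3 read 4.45 (the floor), 5.87 and 5.10. The control arrays lay within a narrow band and the Zeb1 arrays were spread out below it, with no overlap. The mean went from 6.93 ± 0.031 to 5.14 ± 0.710 (SD, n = 3 each), a change of -1.79 (SE 0.373, 95% interval -2.63 to -0.95, limma adjusted p = 0.00315), or at least 3.46-fold lower. This probe set passed the filter through the control arrays alone, and with no filter limma gave an adjusted p of 0.0312. The change was -0.60 under the floor of 6.32 (adjusted p = 0.00395) and -2.07 without a floor. The other Loxl1 probe set, 1436063_at, was at the floor on all 6 arrays.

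Lox, the founding member of the family, lay at or near the floor in both groups. On probe set 1416121_at all 3 control arrays and Zeb1 replicates 1 and 3 were at the floor, and it read 5.91 on Zeb1 replicate 2. Probe set 1437903_at was above the floor on control replicate 2 (4.72) and on Zeb1 replicates 1 and 3 (5.02 and 4.80). The third, 1448228_at, was above the floor on control replicate 1 alone (5.26). No Lox probe set reached the array median on any array, so none was tested and no fold is given. These signals neither show nor bound a change in Lox.

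Loxl3 and Loxl4, which like Loxl2 carry scavenger receptor domains before the oxidase domain, were at or above the array median on every array and were not called. Loxl3 read 7.57, 7.57 and 7.72 in control replicates 1 to 3 and 7.83, 7.79 and 7.39 in Zeb1 replicates 1 to 3. Zeb1 arrays lay on both sides of the control range. Its difference was 0.05 (95% interval -0.34 to 0.43, adjusted p = 0.86), with a sign that turned under quantile normalization (-0.036) and without Zeb1 replicate 1 or 2 (-0.036 and -0.013).
Loxl4 on probe set 1421153_at read 7.55, 7.30 and 7.67 in control replicates 1 to 3 and 7.48, 7.73 and 7.81 in Zeb1 replicates 1 to 3, a difference of 0.17 (95% interval -0.22 to 0.56, adjusted p = 0.474). On 1450134_at the difference was -0.09 (95% interval -0.63 to 0.45, adjusted p = 0.795), and it became positive without control replicate 2 or 3 (0.044 and 0.0074).

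**Figure D3:**
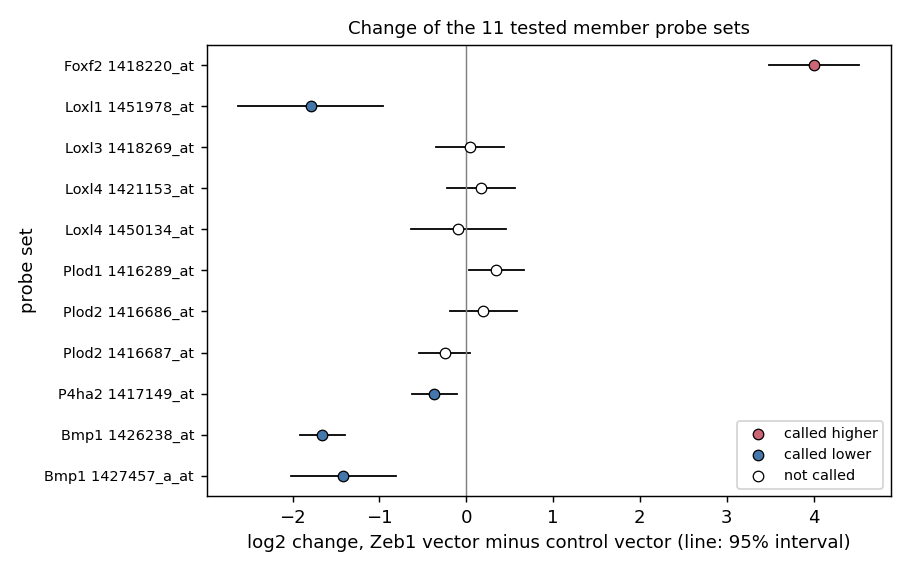
Log2 change (horizontal axis, Zeb1 vector minus control vector) of the 11 tested member probe sets (vertical axis), with 95% intervals as lines. Filled points were called and open points were not. Foxf2 stands at 4.01, the 2 Bmp1 probe sets at -1.66 and -1.42 and Loxl1 at -1.79, while the other points lie between -0.37 and 0.35.

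Of the 3 member hydroxylases that act on collagen before secretion, P4ha2 was called and Plod1 and Plod2 were not. P4ha2, a catalytic subunit of prolyl 4-hydroxylase, read 9.71, 9.79 and 9.55 in control replicates 1 to 3 and 9.19, 9.26 and 9.49 in Zeb1 replicates 1 to 3. The highest Zeb1 array lay just under the lowest control array. Its mean went from 9.68 ± 0.122 to 9.31 ± 0.155 (SD, n = 3 each), a fall of 1.29-fold (log2 change -0.37, SE 0.114, limma adjusted p = 0.0248). Without the filter on low signals P4ha2 was no longer called (adjusted p = 0.0719). The call was also lost without control replicate 1 (0.0737), control replicate 2 (0.0729), Zeb1 replicate 1 (0.0906) or Zeb1 replicate 2 (0.0797), each an adjusted p, and the direction was the same in these and in the other alternatives run. The related subunit P4ha1 fell by 0.63 (SE 0.102, adjusted p = 0.000698) and by 0.71 on its other probe set. The within-array difference of P4ha2 and P4ha1 was -0.59 ± 0.185 in control and -0.33 ± 0.111 in Zeb1 arrays (SD, n = 3 each). Only its change is read, since levels of different probe sets cannot be compared, and this gives an unequal change of 0.26 (two-sided exact permutation p = 0.2, 0.4 adjusted over 2 pairs; 3 arrays against 3 allow no p below 0.1).

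Plod1, a lysyl hydroxylase of the triple helix, read 7.95, 8.14 and 8.22 in control replicates 1 to 3 and 8.28, 8.53 and 8.55 in Zeb1 replicates 1 to 3. Every Zeb1 array lay above every control array, by a small margin. The difference was 0.35 (SE 0.141, 95% interval 0.03 to 0.66), and it did not pass after adjustment (adjusted p = 0.0711). A second Plod1 probe set, 1445893_at, stayed below the array medians and was not tested, with a mean of 5.04 ± 0.694 in control and 5.72 ± 0.226 in Zeb1 cells (SD, n = 3 each).

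Plod2, the lysyl hydroxylase of the collagen telopeptides and so the one tied to stable crosslinks, gave 2 probe sets that pointed opposite ways. On 1416686_at it read 8.42, 8.75 and 8.27 in control replicates 1 to 3 and 8.97, 8.57 and 8.49 in Zeb1 replicates 1 to 3, with groups that overlapped. The difference was 0.20 (95% interval -0.19 to 0.59, adjusted p = 0.388). On 1416687_at it read 8.54, 8.46 and 8.77 against 8.28, 8.32 and 8.42, with no overlap and Zeb1 arrays lower, a difference of -0.25 (95% interval -0.54 to 0.05, adjusted p = 0.157). Neither was called, and the interval of the first reaches no further than 0.59 upward. The within-array difference of Plod2, on its brightest probe set, and Plod1 changed by -0.15 (two-sided exact permutation p = 0.7, adjusted 0.7).

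Bmp1, the protease that removes the procollagen C-propeptide, fell on both of its tested probe sets. On 1426238_at it read 9.83, 10.03 and 9.95 in control replicates 1 to 3 and 8.17, 8.44 and 8.23 in Zeb1 replicates 1 to 3. The groups were far apart relative to their spread. The mean went from 9.94 ± 0.104 to 8.28 ± 0.140 (SD, n = 3 each), a 3.15-fold fall (log2 change -1.66, SE 0.116, 95% interval -1.92 to -1.40, limma adjusted p = 2.69e-06). On the dimmer 1427457_a_at it read 6.88, 7.18 and 7.02 against 5.35, 5.99 and 5.49, 2.67-fold lower (log2 change -1.42, SE 0.27, adjusted p = 0.00187), or -0.70 under the floor of 6.32. This dimmer probe set passed the filter through the control arrays alone, and with no filter limma gave an adjusted p of 0.0113. The third, 1427458_at, was at the floor on 2 of 3 control arrays and was not tested (means of 4.94 and 5.54). Among all tested probe sets 618 had a fall at least as large as that of the brightest Bmp1 probe set, itself included.

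Of the 7 member probe sets not tested, 0 were called by limma when the filter was dropped (adjusted p = 0.331 to 1, and 0 with an unadjusted p below 0.05).

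More of the other collagen-processing genes rose than fell. Of 27 listed enzymes, chaperones and transport factors 24 were on the array and 19 were tested. By the brightest tested probe set 12 rose, 3 fell and 4 were not called, beside 25.8% higher and 23.5% lower over all tested genes. The median log2 change was 0.46. Fkbp14, a prolyl isomerase of the endoplasmic reticulum, read 5.88, 6.31 and 6.62 in control replicates 1 to 3 and 8.35, 8.52 and 8.44 in Zeb1 replicates 1 to 3. It was 4.49-fold higher (log2 change 2.17, SE 0.212, limma adjusted p = 2.65e-05). Mmp14, a membrane-bound collagenase, read 8.15, 7.95 and 8.07 against 9.70, 9.36 and 9.79, a 2.95-fold rise (SE of the log2 change 0.138, adjusted p = 1.31e-05), and its 2 other probe sets rose by 1.52 and 1.70. For Pcolce2, a protein that enhances the cleavage by Bmp1, the signals were 9.43, 9.56 and 9.26 against 10.63, 10.45 and 10.67, a 2.24-fold rise (SE 0.105, adjusted p = 1.55e-05).

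The genes that fell in this list were an intracellular hydroxylase, a chaperone and a crosslinking enzyme. Tgm2, the transglutaminase that links matrix proteins by a route separate from lysyl oxidases, read 11.36, 11.51 and 11.45 in control replicates 1 to 3 and 7.57, 8.07 and 8.56 in Zeb1 replicates 1 to 3. It was 10.4-fold lower (log2 change -3.37, SE 0.206, adjusted p = 1.1e-06), and its 4 other tested probe sets were called lower too, with log2 changes of -3.30 to -1.61. Besides P4ha1, the collagen chaperone Serpinh1 (HSP47) fell by 0.54 (SE 0.094, adjusted p = 0.00104).

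**Figure D4:**
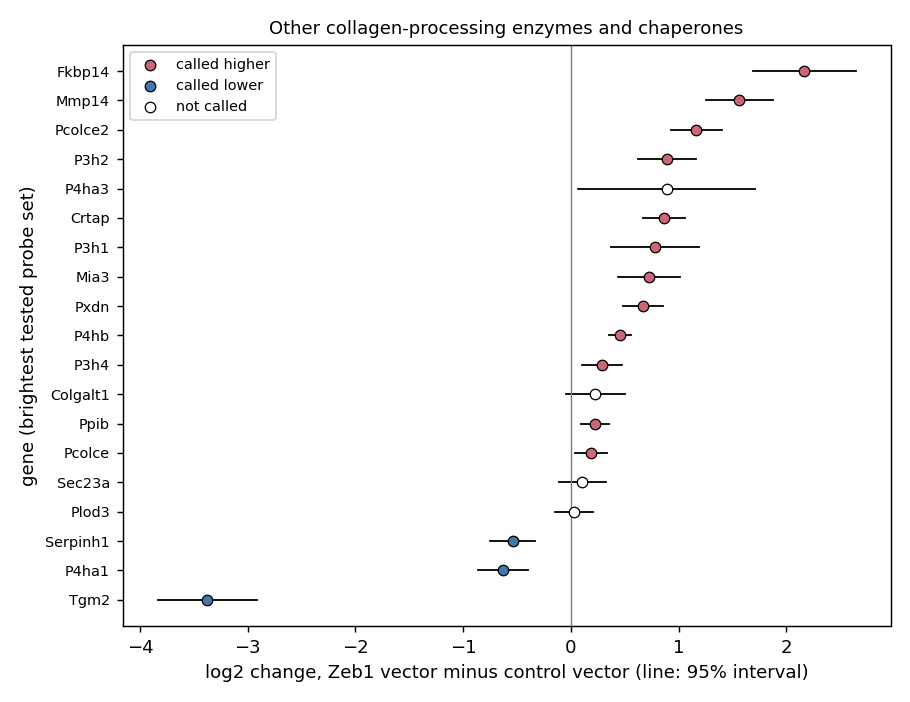
Log2 change (horizontal axis, Zeb1 vector minus control vector, with 95% intervals) of the 19 tested collagen-processing genes outside the members (vertical axis), each by its brightest tested probe set. Filled points were called, 12 higher and 3 lower, and open points were not; Fkbp14 (2.17) and Tgm2 (-3.37) mark the ends.

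Among the substrates of these enzymes, 21 collagen and elastin genes, 11 were tested: 2 rose, 2 fell and 7 were not called, beside 49.3% called over all tested genes. The median log2 change was -0.01. Col4a5, a basement membrane chain, rose 7.34-fold (log2 change 2.88, or 0.80 on its other probe set) and Col5a1, a chain of fibrils, 5.99-fold (2.58, or 1.52 on its other tested probe set), while Col4a1 and Col4a2 had changes of -0.32 (adjusted p = 0.0081) and -0.37 (adjusted p = 0.0199). A second Col4a1 probe set had a difference of 0.04 and was not called. The fall of Col4a2 was lost without control replicate 2 or 3 or Zeb1 replicate 1 or 2 (adjusted p = 0.058, 0.0647, 0.0752 and 0.0622), with no filter (0.101) and with no intensity trend (0.0595).

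P4ha1, P4ha2, Plod2 and Lox are known as genes that hypoxia can induce, so a list of hypoxia-response genes was read beside them. Of 14 tested 8 fell, 1 rose and 5 were not called, with a median of -0.34, beside the same gene background of 23.5% lower and 25.8% higher. Ndrg1 fell 6.94-fold, from 11.69, 11.64 and 11.50 to 8.80, 8.90 and 8.75 in replicates 1 to 3, with log2 changes of -2.23 to -1.91 on its 4 other probe sets. The mitophagy receptor Bnip3 fell by 1.46 and the mTOR inhibitor Ddit4 by 1.27. Egln3, an oxygen-sensing prolyl hydroxylase, was the 1 gene that rose, at least 10.6-fold, with 1 control array at the floor. Its log2 change was 3.41, or 2.37 under the floor of 6.32 and 2.99 without control replicate 3. The part of this difference in the falls of P4ha1 and P4ha2 was not tested.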

How the data were processed

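The deposited table holds log2 values of 45101 probe sets on 6 arrays. The authors made them with MAS5, per the submitters' processing notes, with no version given in the sources used here. From the values, each array had been scaled to a linear mean of 500 to 500.2 (2% trimmed at each end). The 2 missing values were placed at the floor, the pooled 25th percentile (log2 4.45, linear 21.8), where 24% to 26.4% of probe sets lay per array. Symbols came from the platform annotation. The Entrez identifiers of 34741 of the 34945 probe sets with 1 symbol were found in RefSeq (GRCm38.p6), and 0 symbols changed.

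The fit used limma 3.58.1 in R 4.3.3 (lmFit, eBayes with an intensity trend) over the 20594 probe sets that reached the array median on at least 3 arrays, with Benjamini-Hochberg adjustment and a threshold of 0.05. A gene of a list was read by its brightest tested probe set. Folds are written as at least N-fold where the lower group mean was under the pooled 50th percentile (6.32) and an array of that group lay at the floor. Named were all probe sets of the members and of Zeb1, the 3 called genes with the largest rise and fall of each list, and the 5 genes most like Foxf2. The members and lists were chosen with earlier results of these data known. The fit was tested on simulated data. The number of arrays, 3 per group, limits the precision. Figures were drawn with matplotlib 3.10.9 in Python 3.11.15.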

Additional observations from a re-analysis of the deposited data

How the results depend on the processing

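Of 148 values of single member probe sets under an alternative, 138 kept their direction and their side of the threshold. The calls of Foxf2, Loxl1 and both Bmp1 probe sets were kept wherever they were fitted, and 5 values of P4ha2 lost the call. The 5 values that changed sign were all of genes not called: Loxl3 (-0.036 under quantile normalization, and -0.036 to 0.19 when 1 array was left out) and the second Loxl4 probe set (-0.32 to 0.044 when 1 array was left out). Demanding the array median on all 6 arrays left 0 member probe sets called higher and 2 lower, and 0 hypoxia-response genes higher, since Foxf2, Loxl1, the dimmer Bmp1 probe set and Egln3 are then not fitted. Collagen and elastin genes called lower numbered 1 with no filter and 1 with no intensity trend, and 1 to 2 when 1 array was left out. Wherever the number was 1, Col4a1 was called and Col4a2 was not. With 1 probe set per gene 6004 of 11893 were called, against 9493 of 20594, because fewer rows were fitted. When 1 array was left out 8286 to 9217 probe sets were called. Arrays of the same replicate number did not deviate together (correlations of 0.02, 0.01 and -0.04 for numbers 1 to 3). With the number as a replicate block 9377 probe sets were called and no member's call changed. For the 2 gene pairs the replicate block, an alternative added after the data were seen, cannot move the unequal changes of -0.15 and 0.26, and its two-sided exact sign-flip p was 0.75 and 0.5 (3 pairs allow no p below 0.25). The unequal change of Loxl2 and Lox was not run, because neither has a tested probe set. Signals near the floor limit what can be said of Lox, of the control level of Foxf2 and of Loxl1 in Zeb1 cells.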
